A study of Mus musculus with 6 samples.

Results

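Barcodes rich in mitochondrial transcripts were droplet barcodes of mouse testis in which the mRNAs of the mitochondrial genome made up a large share of the reads. The members were all barcodes with at least 15% of their unique molecular identifiers (UMIs, one per captured RNA molecule) from genes whose symbol starts with mt-, and with under 0.5% from the sum of 7 Sertoli cell genes (Clu, Defb19, Cst9, Cst12, Aard, Rhox8 and Trf). This rule, called the gate below, took 5094 of 48939 barcodes (10.4%). Of the 5153 barcodes over the mitochondrial limit, 59 were removed by the Sertoli limit and were counted with the others. The gate used measured values, so the mitochondrial share of the members and the levels of mt-Nd2, mt-Nd1, mt-Co1 and mt-Co3 describe how they were chosen and are no result.

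The testes came from 8-week-old C57BL/6 wildtype males (C57BL/6N in the methods) kept for 2 weeks on food rich in fat (high-fat diet, HFD) or poor in it (low-fat diet, LFD), with 3 libraries for each diet and no other allele or agent. Each diet group had 3 mice, and the tissue was digested with collagenase, DNase and trypsin before the cells were loaded. Groups are named here by the sample titles. The deposited file names carry the opposite diet for all 6 libraries, and the study's own cell numbers per library go with the file names. If the file names are right, every difference between diets given below changes sign, while the comparisons within libraries are untouched.

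The mouse mitochondrial genome encodes 13 proteins, all of them subunits of the respiratory chain complexes I, III and IV or of the ATP synthase (complex V). Its long transcripts are cut, mostly at the tRNAs between genes, into mRNAs, most of them with poly(A) tails. Germ cells change their mitochondria as they mature, from the spermatocyte that enters meiosis to the spermatid that strips its cytoplasm and arranges the remaining mitochondria along the tail. In droplet data a high mitochondrial share is commonly used as a sign of a damaged cell that has lost cytoplasmic RNA, and it also differs between cell types.

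The method primes on poly(A) RNA and reads toward its 3′ end. Where within an mRNA the counted reads lie was not tested. The last 30 bases of 6 annotated entries are shown because these annotated ends differ in form, with the bases of the last codon in capitals (GENCODE M21 annotation, GRCm38, plus strand of chromosome M). The entries stop at the last codon, and where the mature mRNAs end was not tested. As annotated, mt-Nd2, mt-Nd1 and mt-Co1 end in a whole stop codon. mt-Co3, mt-Nd4 and mt-Cytb end in a single T of it, and the poly(A) tail supplies the rest of the stop codon.
mt-Nd2, chrM:4922-4951: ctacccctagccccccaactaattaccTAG
mt-Nd1, chrM:3678-3707: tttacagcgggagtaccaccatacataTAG
mt-Co1, chrM:6843-6872: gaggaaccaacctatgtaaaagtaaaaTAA
mt-Co3, chrM:9361-9390: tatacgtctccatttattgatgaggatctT
mt-Nd4, chrM:11515-11544: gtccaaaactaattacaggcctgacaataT
mt-Cytb, chrM:15259-15288: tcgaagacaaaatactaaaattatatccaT

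The gated barcodes held 4.50% of all UMIs but 45.8% of the mitochondrial UMIs. By mitochondrial share, 2083 of them lay between 15% and 20%, 1662 between 20% and 30%, 1150 between 30% and 50%, and 199 at 50% or more. The limit did not fall in a gap of the distribution. The 276 barcodes less than 0.5 points above it had a median of 2740 UMIs, and the 295 less than 0.5 points below it had a median of 2548.

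The share of barcodes in the gate varied between libraries by more than between diets. In the libraries labelled HFD it was 6.37%, 10.9% and 13.8% (replicates 1 to 3), and in those labelled LFD it was 9.42%, 5.52% and 22.8%. LFD replicate 3 stood highest, with 1314 of 5753 barcodes (95% exact binomial interval 21.8% to 23.9%), and LFD replicate 2 lowest, with 612 of 11095 (5.10% to 5.96%). These intervals cover counting error only. The means were 10.4% ± 3.75 (SD, n = 3) for HFD and 12.6% ± 9.09 (n = 3) for LFD, a difference of −2.22 percentage points (exact permutation test over libraries, two-sided, p = 0.9, where 3 against 3 allows no p below 0.1). The groups overlapped. The difference was −3.04 points between the replicate 1 libraries, which correlated most among same-numbered libraries, and −1.81 in the other 4 libraries. Without LFD replicate 3 it was 2.91, the opposite sign.

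LFD replicate 3 was also the shallowest library, with 39196921 of the 39196921 to 95845514 UMIs that libraries held. There the gate held 70.6% of the library's mitochondrial UMIs, against 27.6% to 52.1% in the other libraries. Of its gated barcodes 530 had a mitochondrial share of 30% or more, against 94 to 219 in each other library. Outside the gate the mitochondrial share of UMIs varied less between libraries. It was 1.28%, 1.43% and 1.58% in the libraries labelled HFD (1.43% ± 0.149, SD, n = 3) and 1.40%, 1.67% and 1.55% in those labelled LFD (1.54% ± 0.139, n = 3). The difference of −0.108 points was within the spread of libraries (exact permutation test, two-sided, p = 0.5), and its sign changed with a limit of 10%. The gate takes out nearly all barcodes over its mitochondrial limit, so the rule itself holds these shares down. Their evenness is therefore no separate result, and the test cannot decide whether the mitochondrial share differed by diet.

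**Figure D1:**
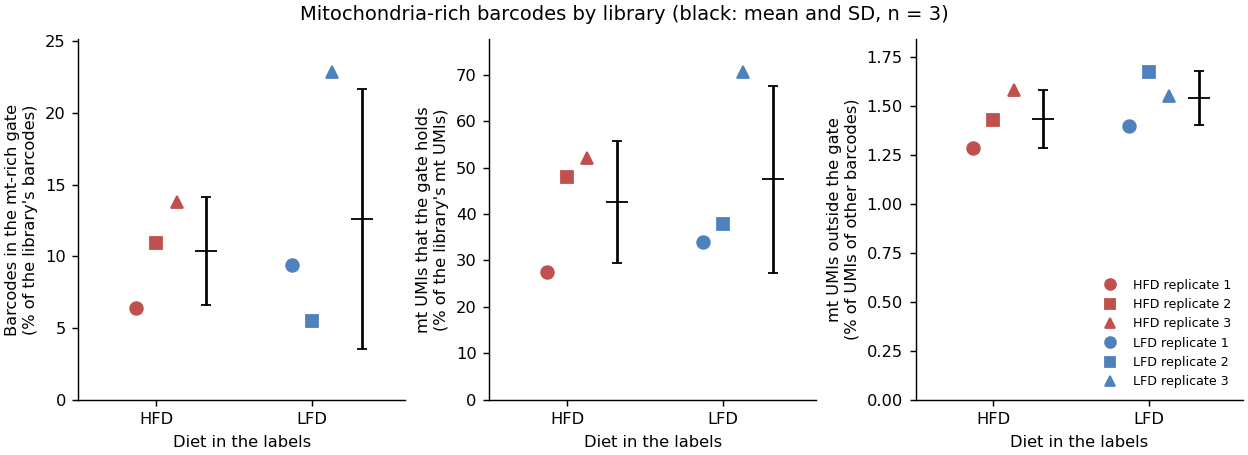
Each point is 1 library, by the diet in its label, and the black marks give the mean and SD of 3. The left panel shows the percentage of the library's barcodes in the gate, the middle panel the percentage of its mitochondrial UMIs that the gate holds, and the right panel the mitochondrial percentage of UMIs outside the gate. LFD replicate 3 lies apart at 22.8% in the left panel and 70.6% in the middle panel. In the right panel it lies within the other libraries, at 1.55%, but the gate's own limit holds all values of that panel down.

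Neither measure of depth is independent of the gate, since total UMIs include the mitochondrial ones and nuclear UMIs are what they were set against, so depth is given as a description with no test. Nuclear UMIs here are those of genes that the gate did not use. The median total was 2187, 3523, 2937, 2599, 4095 and 2615 UMIs in gated barcodes, in the order HFD replicates 1 to 3 and LFD replicates 1 to 3, and 2333, 3398, 2824, 2616, 2731 and 2052 in the others. The median of nuclear UMIs was 1670, 2711, 2310, 1959, 3066 and 1840 in gated and 2295, 3349, 2783, 2521, 2673 and 1973 in other barcodes. Gated barcodes thus had the higher median total in 4 of 6 libraries and the lower nuclear median in 5 of 6, all but LFD replicate 2. The 95th percentile of total UMIs was 5971 to 12286 UMIs among gated barcodes and 30622 to 51845 among the others. Doublets were not removed. Of the barcode sequences, 284 occurred in more than 1 library, which touched 49 gated barcodes.

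Nuclear RNA of gated barcodes was spread over more genes. After each barcode was thinned to 1000 nuclear UMIs, the median was 754, 779, 781, 758, 779 and 780 genes in gated barcodes and 716, 739, 744, 731, 736 and 761 in the others of the same libraries. The gated value was higher in 6 of 6 libraries, by 34 ± 9.12 genes (SD, n = 6, exact sign-flip permutation test, two-sided, p = 0.031, the smallest p that 6 libraries allow). Between 0 and 27 gated barcodes of a library had fewer nuclear UMIs and were left out.

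The make-up of the mitochondrial UMIs was not used by the gate, which added up all 13 mRNAs. It was compared as each mRNA's percentage of the mitochondrial UMIs of a library's gated and other barcodes. Cytochrome oxidase and ATP synthase mRNAs led in both. In gated barcodes mt-Co3 made up 23.8% ± 0.558 (SD, n = 6), mt-Co2 20.4% ± 0.478, mt-Atp6 18.5% ± 0.977 and mt-Co1 15.97% ± 1.12 of mitochondrial UMIs. mt-Cytb (complex III) made up 5.45% ± 0.695, mt-Nd1 4.97% ± 0.124, mt-Nd4 4.07% ± 0.222 and mt-Nd2 4.06% ± 0.392. mt-Nd6, the only mRNA read from the other strand, stood lowest at 0.0529% ± 0.0100.

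mt-Co1, which encodes the catalytic subunit of cytochrome oxidase, took a smaller share in the gate. It was 16.3%, 17.6%, 16.3%, 15.2%, 16.05% and 14.3% in gated barcodes and 18.5%, 18.3%, 18.1%, 18.6%, 18.6% and 18.2% in the others, in the same order of libraries. All 6 gated values lay below all 6 of the others, and the mean difference was −2.42 percentage points ± 1.17 (SD, n = 6). The opposite held for mt-Nd2, a membrane subunit of complex I, at 4.06% in gated against 3.48% in other barcodes, a difference of 0.584 points ± 0.244, higher in 6 of 6 libraries.

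In all, 9 of the 13 mRNAs differed by the exact sign-flip permutation test over 6 libraries, each at p = 0.031 and Benjamini-Hochberg adjusted p = 0.0451 over the 13. mt-Nd2, mt-Nd6, mt-Co2, mt-Co3 and mt-Atp6 were higher in the gate, and mt-Nd4, mt-Nd4l, mt-Co1 and mt-Atp8 were lower. The differences were small: from 0.846 times the other barcodes' share for mt-Atp8 to 1.26 times for mt-Nd6, with mt-Co1 at 0.869 times. mt-Nd1 (−0.167 points), mt-Nd3 (−0.0346), mt-Nd5 (−0.0449) and mt-Cytb (−0.477) did not pass. With 0.031 as the smallest p, an adjusted p under 0.05 needs at least 9 of the 13 at that p, so the calls can end together: none of the 13 passed with a limit of 20%, without the Sertoli limit, or against other barcodes of like depth, while 10 passed with a limit of 10% and 9 against other barcodes with a mitochondrial share of 5% to 15%. mt-Co1, mt-Nd4, mt-Atp8, mt-Nd2, mt-Nd6, mt-Co2, mt-Co3 and mt-Atp6 kept their sign in each of these. mt-Atp8 and mt-Atp6, and mt-Nd4l and mt-Nd4, overlap on the same strand and share an mRNA, so the split of their counts is uncertain.

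**Figure D2:**
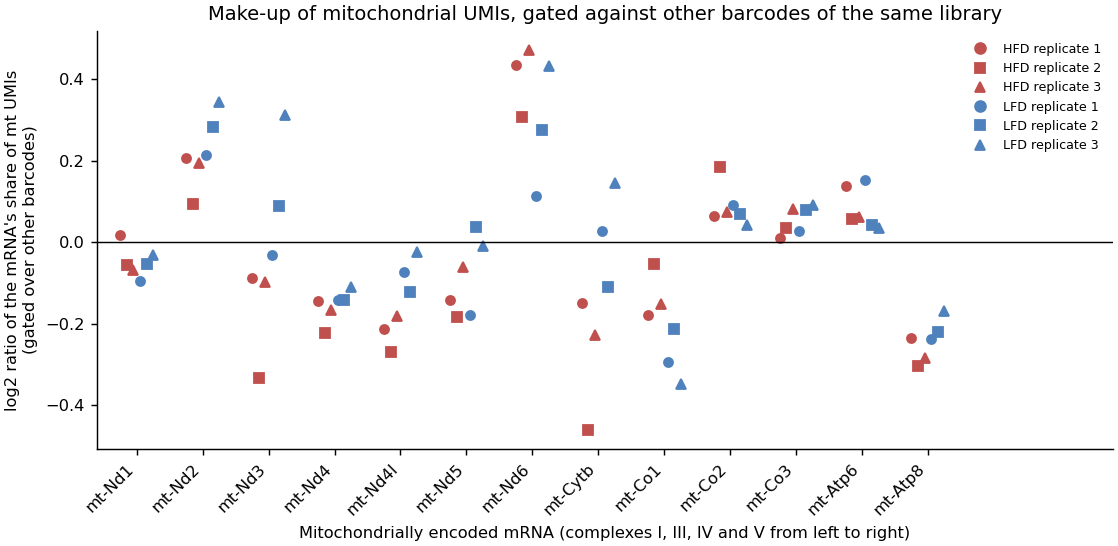
The y axis is the log2 ratio of an mRNA's share of mitochondrial UMIs in gated barcodes over that in the other barcodes of the same library, for the 13 mRNAs on the x axis, with 1 point per library. mt-Co1, mt-Nd4, mt-Nd4l and mt-Atp8 lie below 0 in all 6 libraries, and mt-Nd2, mt-Nd6, mt-Co2, mt-Co3 and mt-Atp6 above it.

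Nuclear genes were then compared between gated and other barcodes, as UMI sums per library with library as a factor (edgeR quasi-likelihood test, adjusted p under 0.05 over all 17446 genes tested). Most genes differed: 5106 genes were higher in the gate (29.3%) and 5977 lower (34.3%), so that a call by itself says little. The median log2 change of all genes was −0.08 with TMM scaling and 0.19 with plain library sizes, where 6881 genes were higher (39.4%) and 3958 lower (22.7%). Against the 5% to 15% band, that is other barcodes with a mitochondrial share of 5% to 15%, 27.8% of 13186 genes were higher and 33.9% lower, and against other barcodes of like depth 28.4% of 13728 were higher and 34.3% lower. Counts of calls in the gene lists below are to be read beside these shares of all genes. Changes below are on the TMM scale, and levels are nuclear counts scaled to a total of 1000000 (CPM), the mean ± SD of 6 libraries.

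The gene with the most RNA among the 12 largest rises was Zfp820, a zinc finger gene (chromosome 17, 21816885 to 21845772). It stood at 359, 399, 283, 521, 331 and 570 CPM in gated barcodes and at 6.58, 22.3, 16.5, 9.73, 13.6 and 39.97 CPM in the others, with no overlap. Its log2 change was 4.39 (SE 0.211, adjusted p = 1.19e-11). Gm35256, a long intergenic RNA gene (chromosome 8, 71026792 to 71126576), followed with 357 ± 129 against 22.2 ± 2.54 CPM, a log2 change of 3.66 (adjusted p = 1.03e-12).

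The other rises were of genes with few UMIs elsewhere. Gm7480 (54.0 ± 27.9 against 1.19 ± 1.099 CPM), A930002C04Rik (63.3 ± 30.2 against 2.25 ± 0.993), Gm43140 (151 ± 59.8 against 6.66 ± 4.17) and 5430427M07Rik (54.8 ± 28.6 against 2.99 ± 2.38) are annotated as antisense to other genes. Among protein-coding genes were Kcnk10, a potassium channel subunit (94.5 ± 45.4 against 5.25 ± 1.21 CPM), B3galt2, a galactosyltransferase (131 ± 57.4 against 7.77 ± 4.70), and Rufy2, a vesicle transport adaptor (85.1 ± 29.7 against 4.44 ± 1.23). Neb, known as the giant thin filament protein of muscle, stood at 60.4 ± 33.7 against 2.47 ± 1.47 CPM, Ecm2 at 86.1 ± 37.1 against 4.27 ± 2.39, and Gm904 at 55.02 ± 27.9 against 4.63 ± 1.26. The choice of these 12 required a call and a higher level in 6 of 6 libraries. They passed in each alternative run, but all runs drew on the same libraries, so this is no independent support. Against other barcodes with a mitochondrial share of 5% to 15% their log2 changes were 1.68 to 4.02. Against those of like depth they were 2.04 to 3.90. Their levels differed between the sub-clusters of the gate described below.

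The 12 largest falls included genes known from haploid germ cells. Tex29 stood at 26.1, 33.2, 25.5, 51.0, 17.4 and 37.7 CPM in gated barcodes and at 133, 128, 113, 169, 99.3 and 179 CPM in the others (log2 change −2.42, SE 0.0983, adjusted p = 1.59e-12). Cabyr, a fibrous sheath protein of the sperm tail, stood at 79.1 ± 20.1 against 248 ± 42.2 CPM, Tssk4, a testis kinase, at 43.3 ± 12.6 against 138 ± 32.6, and Sun5, which joins the sperm head to the tail, at 31.0 ± 12.9 against 104 ± 25.9. Tmem249, Stambpl1, Spata31, Isg20, 4930596D02Rik, Naa80, Pdk3 and Saxo1 made up the rest, with log2 changes of −2.47 to −1.95. These falls depended on what the gate was compared with. Against other barcodes with a mitochondrial share of 5% to 15%, 10 of the 12 changed sign, to between 0.043 and 0.49, and none of the 10 passed. Only Pdk3, a pyruvate dehydrogenase kinase, was still called lower there (log2 change −1.30).

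**Figure D3:**
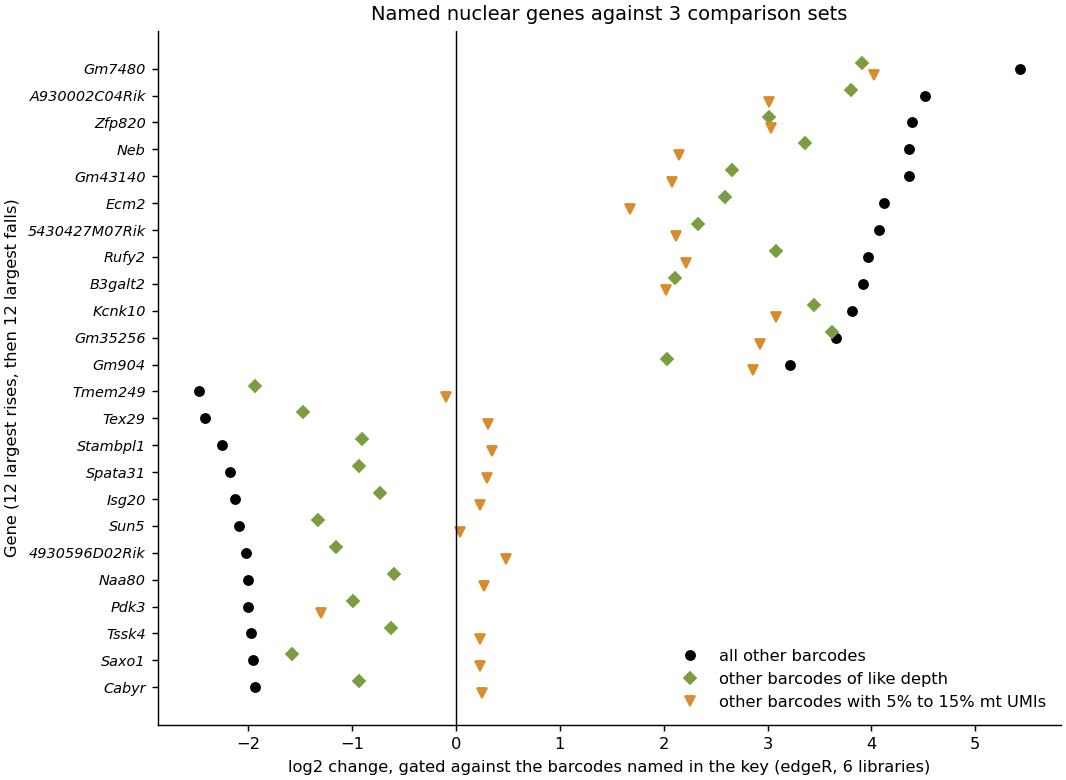
The x axis is the log2 change of gated barcodes against all other barcodes (black circles), other barcodes of like depth (green diamonds) and other barcodes with a mitochondrial share of 5% to 15% (orange triangles), for the 12 largest rises and 12 largest falls on the y axis. The rises stay between 1.68 and 5.43 in all 3 comparisons, while most of the falls lie near 0 against the orange set.

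The same split showed when barcodes under the Sertoli limit were binned by mitochondrial share. Zfp820 rose over the whole range, from 11.4 ± 9.08 CPM (SD, n = 6) below 1% to 24.7 ± 15.8 at 1% to 5%, 57.9 ± 44.0 at 5% to 15%, 214 ± 82.1 at 15% to 30% and 1127 ± 147 at 30% and over. The highest bin held 954 to 1325 CPM in every library and overlapped no other bin. Kcnk10 went the same way, from 3.57 ± 1.13 to 214 ± 74.2 CPM, as did Gm35256, from 9.596 ± 5.68 to 582 ± 138 CPM. Tex29 dropped once, from 198 ± 41.7 CPM below 1% to 19.1 ± 8.04 at 1% to 5%, and was at 33.3 ± 5.18 CPM at 30% and over. Cabyr had the same shape, with 347 ± 56.1, 59.7 ± 18.5 and 82.1 ± 12.7 CPM in those bins. For both, barcodes with under 1% stood apart from all the higher bins.

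**Figure D4:**
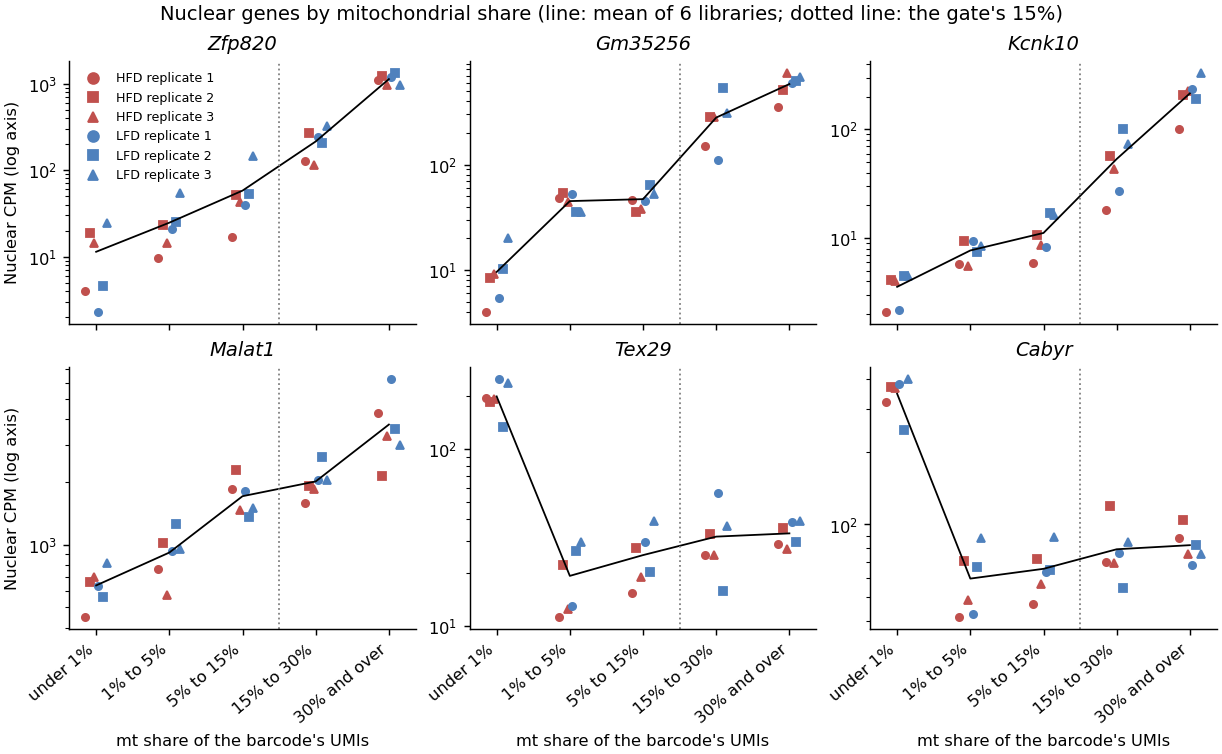
Each panel shows 1 gene, with CPM of nuclear UMIs on a log axis against the mitochondrial share of the barcode's UMIs in 5 bins, 1 point per library and bin, and a line through the means. Zfp820, Gm35256, Kcnk10 and Malat1 are highest at 30% and over, and Tex29 and Cabyr are highest below 1%.

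Of 5 RNAs tested that stay in the nucleus, 4 were called higher in the gate as a whole and 0 lower. Among all genes 29.3% were higher and 34.3% lower. Malat1, a long noncoding RNA of nuclear speckles, stood at 2236, 1934, 2139, 3281, 2747 and 2420 CPM in gated and 622, 873, 712, 814, 794 and 948 CPM in other barcodes (log2 change 1.34, SE 0.0882, adjusted p = 3.80e-10), and the groups did not overlap. Kcnq1ot1, the imprinted noncoding RNA, stood at 299 ± 42.6 against 80.5 ± 25.8 CPM, Neat1, the scaffold of paraspeckles, at 41.8 ± 13.3 against 12.3 ± 2.96, and Snhg11 at 5.38 ± 3.07 against 2.39 ± 0.497. Against other barcodes with a mitochondrial share of 5% to 15% Malat1 was still called higher (0.48), while Kcnq1ot1 (−0.08) and Neat1 (0.48) were not called and Snhg11 was lower (−2.03). Within the gate Malat1 was at 4261 and 4770 CPM in sub-clusters 1 and 3, described below. In sub-clusters 2, 4 and 5 it was at 397 to 756 CPM, against 622 to 948 in other barcodes.

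3 shares of the nuclear UMIs were added after the data were seen. Long noncoding RNAs took 6.55% to 7.22% of nuclear UMIs in gated and 5.50% to 6.38% in other barcodes, 1.01 points more (± 0.185, SD, n = 6). Ribosomal protein genes took 4.02% to 5.33% and 5.18% to 6.43%, a difference of −1.08 points (± 0.566). X-linked genes took 0.410% to 0.782% and 0.762% to 0.980%, a difference of −0.266 points (± 0.104). Each had 1 sign in 6 of 6 libraries (exact sign-flip permutation test, two-sided, p = 0.031 for each, 0.031 also after adjustment over the 3) and kept it against both other comparison sets. Genes of the X chromosome, which is silenced in pachytene spermatocytes, were 0.745% of the 5106 genes called higher, 4.54% of the 5977 called lower and 3.28% of all genes tested. Long noncoding RNA genes were 17.9% of those called higher, 23.5% of those called lower and 19.95% of all tested. Their larger share of UMIs thus does not mean that more of these genes rose. Genes called higher spanned a median of 27.3 kb, those called lower 13.8 kb, and all tested genes 19.7 kb.

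Of 80 nuclear genes tested for subunits of the respiratory chain and ATP synthase, 5 were higher and 58 lower (29.3% and 34.3% of all genes). Their median log2 change was −0.39 (all genes −0.08). With plain library sizes 17 were higher and 34 lower (39.4% and 22.7% of all genes), with a median of −0.11 (all genes 0.19). The summed level was 24838 to 29101 CPM in gated and 23781 to 28789 CPM in other barcodes, higher in 4 of 6 libraries. Those called higher included Cox8c, a testis isoform of a cytochrome oxidase subunit, at 4570 ± 235 against 2298 ± 407 CPM (log2 change 0.73, adjusted p = 9.95e-09), and Cox6c, another oxidase subunit, at 1491 ± 230 against 843 ± 160. Both were called higher in each scaling and each comparison set run. Lower genes included Cox6b2, the testis form of another oxidase subunit (691 ± 119 against 985 ± 93.8 CPM, log2 change −0.81), Uqcrc1, a core subunit of complex III (169 ± 38.1 against 251 ± 32.8, −0.88), and Atp5b, the catalytic subunit of the ATP synthase (341 ± 38.6 against 430 ± 19.3, −0.62). Of the 80, 9 were higher and 46 lower against other barcodes with a mitochondrial share of 5% to 15% (27.8% and 33.9% of all genes). Cox6b2 was not called there (0.20).

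Of 28 genes tested that copy, transcribe or process mitochondrial DNA and RNA, 7 were higher and 4 lower. Among all genes 29.3% were higher and 34.3% lower, so the share called higher was below that of all genes. The median log2 change was 0.13 (all genes −0.08), and with plain library sizes 14 were higher and 4 lower (39.4% and 22.7% of all genes). Polg, the mitochondrial DNA polymerase, stood at 135 ± 27.7 against 33.7 ± 5.37 CPM (log2 change 1.71, adjusted p = 1.90e-11). The groups did not overlap, and it was called higher in each scaling and comparison set. Pnpt1, an RNA-degrading enzyme of mitochondria, stood at 29.3 ± 8.90 against 8.33 ± 2.02 CPM (1.53), and Mtpap, the mitochondrial poly(A) polymerase, at 32.4 ± 6.82 against 18.4 ± 3.54 (0.53). Tfam, which packages and transcribes mitochondrial DNA, was lower (182 ± 54.3 against 225 ± 54.0 CPM, −0.60), and Slirp, which stabilises mitochondrial mRNAs, did not pass (227 ± 40.6 against 190 ± 37.4, −0.02, but called higher at 0.26 with plain library sizes). In the comparison with that band, 4 were higher and 14 lower of 27, and neither Pnpt1 (0.14) nor Tfam (0.30) passed.

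Germ cell mitochondrial proteins changed with the comparison set. Of 14 tested, 1 (Cox8c) was higher and 10 lower, beside 29.3% and 34.3% of all genes. With plain library sizes 4 were higher and 9 lower (39.4% and 22.7% of all genes). Lower ones on the TMM scale included Smcp, of the sperm mitochondrial capsule (2400 ± 838 against 2823 ± 507 CPM, log2 change −0.58), and Gpx4, the selenoenzyme of that capsule (1861 ± 373 against 2370 ± 377, −0.64). In the 5% to 15% band comparison, 11 were higher and 1 lower, with Smcp at 0.54 and Gpx4 at 0.49.

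Stage markers of germ cells moved in both directions. All 10 round spermatid markers were lower (median log2 change −1.33), as were 9 of 10 elongating spermatid markers (−0.60) and 8 of 10 pachytene markers (−0.66), against 9, 7 and 6 with plain library sizes. UMIs of condensing spermatid genes were many on both sides: Prm1, a protamine that packs sperm DNA, stood at 10526 ± 3318 against 12889 ± 4534 CPM and Tnp2, a transition protein, at 4776 ± 1289 against 7168 ± 2334. Prm1 was at 5635 to 12816 CPM in every sub-cluster described below, and its gated level was highest in LFD replicate 1 and HFD replicate 1, the libraries where it was also highest in barcodes below 1%. The part of free RNA in the droplets was not tested. The 1 pachytene marker called higher was Piwil1, the Argonaute protein of piRNAs (329 ± 112 against 178 ± 42.6 CPM, log2 change 0.59), and it was also higher in both other comparison sets. Of 10 markers of early spermatocytes, 2 were higher (Hormad1, 218 ± 22.1 against 129 ± 40.9 CPM, and Sycp2, 267 ± 66.2 against 185 ± 60.1) and 2 lower (Sycp1 and Sycp3, neither called with plain library sizes), although all 4 are proteins of the meiotic chromosome axis or synaptonemal complex. Spermatogonial markers gave 2 higher (Kit and Zbtb16) and 5 lower of 10, beside 29.3% higher and 34.3% lower among all genes. Against other barcodes with a mitochondrial share of 5% to 15%, 10 of 10 elongating spermatid, 7 of 10 pachytene and 3 of 10 round spermatid markers were higher, and 10 of 10 early spermatocyte and 9 of 10 spermatogonial markers were lower.

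Somatic markers other than those of Leydig cells had low sums in both gated and other barcodes. The counts of calls below stand beside 29.3% higher and 34.3% lower among all genes tested. The sum of 12 Sertoli markers outside the gate was 22.9 to 157 CPM in gated and 31.0 to 115 CPM in other barcodes, with Fshr at 0 (2 higher and 2 lower of 10 tested). That sum was higher in gated barcodes in 3 of 6 libraries, and the gate's Sertoli limit partly fixes it. The sum of 10 macrophage markers was 10.6 to 116 against 46.6 to 93.9 CPM (0 higher and 5 lower of 9), and that of 10 peritubular and stromal markers 13.8 to 81.4 against 14.54 to 107 CPM (0 higher and 3 lower of 10). The sum of 8 T cell markers was 12.4 to 27.6 against 15.8 to 32.2 CPM (1 higher and 1 lower of 4, with Cd8a, Trac and Nkg7 at 0), and that of 8 endothelial markers 7.22 to 19.1 against 13.2 to 19.7 CPM (0 higher and 1 lower of 4). Hbb-bs, a beta globin of red blood cells, was at 0.336 ± 0.403 CPM in gated and 25.5 ± 23.9 CPM in other barcodes, and 0 of 2 erythroid genes tested were higher and 1 lower.

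Leydig cell markers split. Star, which carries cholesterol into mitochondria, stood at 4.60, 28.0, 25.5, 12.7, 28.5 and 58.4 CPM in gated and at 1.41, 1.84, 2.19, 1.04, 2.37 and 4.06 CPM in other barcodes (log2 change 3.27, adjusted p = 2.72e-10). Cyp11b1, a mitochondrial enzyme of steroid synthesis, stood at 28.8 ± 13.2 against 2.31 ± 1.65 CPM (3.51) and Lhcgr, the luteinizing hormone receptor, at 2.14 ± 1.91 against 0.226 ± 0.165 (2.95). Against the 5% to 15% band Star was at 1.02 and Cyp11b1 at 1.19, both still called higher, and Lhcgr was not tested. Insl3, Hsd3b6 and Cyp17a1, which define Leydig cells, were below the filter on low counts and not tested. For them no contrast with the other barcodes is shown. Insl3 and Hsd3b6 had 0 UMIs among 14247697 nuclear UMIs of gated barcodes, which allows up to 0.211 CPM (3 counts over all gated barcodes), and Cyp17a1 had 1 UMI. In all, 3 of 4 Leydig markers tested were higher and Cyp11a1 was lower, and the sum of 9 was 17.6 to 103 CPM in gated and 2.84 to 24.3 CPM in other barcodes.

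Early response and heat shock genes were mostly lower, while cell death and mitochondrial stress genes moved in both directions. Of 20 early response and heat shock genes, which tissue dissociation is known to induce, 1 was higher (Jun, 30.1 ± 6.71 against 17.3 ± 4.33 CPM) and 16 lower. Among all genes 29.3% were higher and 34.3% lower. With plain library sizes 2 of the 20 were higher and 13 lower. On the TMM scale their median log2 change was −0.98. Fos stood at 3.24 ± 1.75 against 13.3 ± 4.76 CPM (−2.42), and Jund at 55.2 ± 14.9 against 92.4 ± 22.6 (−1.03). With barcodes of like depth as the others, 0 of the 20 were higher and 18 lower (median −2.10), and Jun was lower (−0.51). Against the 5% to 15% band 1 early response gene was higher and 13 were lower of 17 tested. Of 20 apoptosis genes, 6 were higher and 4 lower (10 and 2 with plain library sizes), so that the share higher was near the 29.3% of all genes, and against the 5% to 15% band 4 were higher and 10 lower of 18. Bcl2l1, which restrains cell death, stood at 117 ± 17.9 against 49.0 ± 6.68 CPM (0.98) and Diablo, which mitochondria release in apoptosis, at 421 ± 50.3 against 262 ± 63.5 (0.43), and both were higher in each comparison set. Casp9, the initiator caspase, stood at 6.85 ± 1.21 against 2.62 ± 0.359 CPM (1.09, but −0.23 and not called against the band), and Bax, which opens the outer membrane, at 9.85 ± 6.23 against 11.9 ± 2.64 (−0.71, not called with plain library sizes). Of 20 genes of the mitochondrial stress response, 3 were higher (Atf4, Lonp1 and Sesn2) and 7 lower (such as Asns, −1.43, and Atf5, −1.73), against 7 and 3 with plain library sizes, which shift all genes alike. On the TMM scale the share lower was near the 34.3% of all genes, and the share higher was below their 29.3%. In the band comparison 2 were higher and 10 lower of 16: Atf4 (−0.47), Lonp1 (−1.07) and Sesn2 (−0.75) were lower there, Asns was not called (−0.13) and Atf5 was still lower (−1.31).

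Of 25 genes of PPAR signalling and fatty acid oxidation, 6 were higher and 8 lower, and 10 and 4 with plain library sizes, which shift all genes alike. On the TMM scale both shares were near those of all genes (29.3% higher and 34.3% lower). Against the 5% to 15% band 3 were higher and 9 lower of 20. Fabp3, a fatty acid binding protein, stood at 79.2 ± 15.96 against 12.9 ± 5.10 CPM (log2 change 2.41, adjusted p = 1.04e-09), and Acadvl, the first enzyme of oxidation of very long chains, at 44.6 ± 18.2 against 11.9 ± 1.67 (1.57). Against other barcodes with a mitochondrial share of 5% to 15% neither passed (0.21 and 0.44). Ppargc1a, a coactivator known to drive mitochondrial biogenesis, stood at 7.90 ± 2.42 against 3.16 ± 0.482 CPM (1.02) and was called higher in that set too (1.51). Plin2, a lipid droplet coat protein, was lower (16.4 ± 6.19 against 42.3 ± 11.3 CPM, −1.72), but was not called against the band (0.12).

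Clustered on nuclear genes only, the gated barcodes fell into 5 sub-clusters, which are described by number because none had as many as 3 of the fixed cell type markers among its 10 leading genes. Their leading genes define them and are no result. Sub-cluster 1 (1197 barcodes, led by Gm7480, Gm35256, Zfp820 and 4930581F22Rik) was the deepest, with a median of 5556 UMIs and a median mitochondrial share of 30.1%. Sub-cluster 2 (1282, led by Gm48051, Ttn, Xirp2 and 4921504E06Rik) lay nearest to the limit, at 17.7%. Sub-cluster 3 (561, led by Auts2, Atp2b1, Kmt2a and Prss50) had a median of 24.4%, sub-cluster 4 (1773, with weak leading genes) 21.3%, and sub-cluster 5 (281, led by Gm49794, AC163638.2, Chst1 and Gm10619) 40.4%.

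Levels by sub-cluster are a description with no test, since nuclear genes made the clusters. Among the rises named above, Zfp820, Gm35256 and Gm7480 are leading genes of sub-cluster 1 and Kcnk10 of sub-cluster 5. Zfp820 was at 947 CPM in sub-cluster 1 and at 10.2 to 125 in the others. Gm35256 was at 903 against 10.5 to 82.2 CPM, and Gm7480 at 149 against 0.336 to 4.27. Kcnk10 was at 295 CPM in sub-cluster 5, 213 in sub-cluster 1 and 6.05 to 22.4 in the rest. Neb, which leads none, was at 119 CPM in sub-cluster 1 and at 2.05 to 57.3 in the others, and Ecm2 was at 115 CPM in sub-cluster 1, 110 in sub-cluster 4 and 0 to 78.4 in the rest. Malat1 was high in sub-clusters 1 (4261 CPM) and 3 (4770 CPM) and at 397 to 756 CPM elsewhere. Star was highest in sub-cluster 1 (57.4 CPM) and Cyp11b1 in sub-cluster 2 (63.9 CPM). The median X-linked share of nuclear UMIs was 0.262% in sub-cluster 1 and 0.524% to 1.15% in the others. Prm1, by contrast, was at 5635 CPM in sub-cluster 1 and at 10979 to 12816 CPM in the others.

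Sub-cluster 3 had 1 fixed marker, Kit, the receptor of differentiating spermatogonia, among its 10 leading genes (94.1 CPM). Its summed spermatogonial markers were at 804 CPM, against 59.1 to 62.5 in the other sub-clusters, and its early spermatocyte markers at 3015 against 1313 to 1778 CPM. Somatic markers were highest there too: Sertoli markers outside the gate at 382 against 24.9 to 59.1 CPM, peritubular and stromal markers at 137 against 10.2 to 20.5, and macrophage markers at 117 against 11.4 to 26.5. Elongating spermatid markers stood at 35886 CPM in it and at 17453 to 39708 in the others.

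The sub-clusters took different shares of each library. Sub-cluster 1 held 13.1%, 13.9% and 21.5% of the gated barcodes in the libraries labelled HFD and 20.2%, 38.7% and 31.1% in those labelled LFD. Sub-cluster 2 held 28.1%, 40.7% and 33.4% against 22.9%, 12.3% and 13.9%. Sub-cluster 5 was mostly 1 library, with 206 of its 281 barcodes from LFD replicate 3. No test was made of these shares, since genes that define the sub-clusters are among those ranked by diet below.

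**Figure D5:**
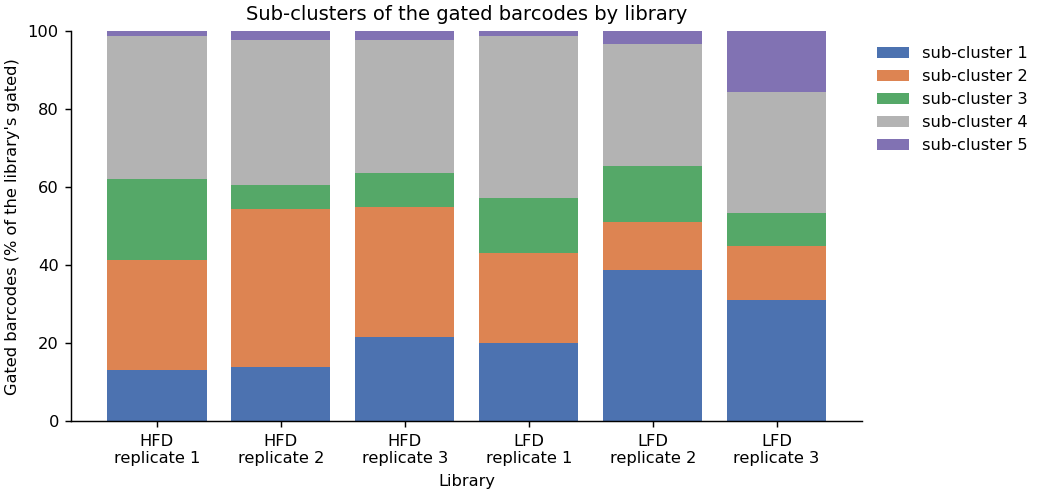
Each bar is 1 library and is divided by the percentage of its gated barcodes in each of 5 sub-clusters. Sub-cluster 5 takes 15.7% of LFD replicate 3 and 1.11% to 3.27% of each other library, and sub-cluster 2 takes 28.1% to 40.7% of libraries labelled HFD and 12.3% to 22.9% of those labelled LFD.

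The diet comparison asked whether the gated barcodes differed between HFD and LFD. No gene of 12344 tested passed (0.0%), by edgeR's quasi-likelihood test on the UMI sums of gated barcodes per library, HFD minus LFD, nor by DESeq2. At an unadjusted p under 0.05 edgeR had 417 genes and DESeq2 250, and the groups did not overlap in 1050 genes (8.51%). With no filter on low counts, 26 of 24173 genes passed (9 higher, 17 lower). They included Xirp2 (adjusted p = 0.000928 by edgeR), Elfn2 (0.0159), Ncaph2 (0.0274) and Gm9758 (0.0385), described below, the gate gene Defb19, and genes known from somatic cells: Acta2 and Myh11 of smooth muscle, Amhr2 of Sertoli cells, the collagen gene Col4a1, and the antigen presentation genes Cd74 and H2-Aa. Some of these rested on few UMIs. Acta2 had 4, 4 and 3 UMIs in the libraries labelled HFD and 36, 15 and 12 in those labelled LFD, and Myh11 had 0, 3 and 2 against 26, 18 and 6. Cd74 was higher in HFD by the test, but its 91, 2 and 70 UMIs overlapped the 1, 5 and 7 in LFD. H2-Aa overlapped too, at 20, 3 and 25 against 0, 3 and 2. With the filter the smallest adjusted p was 0.9997, and none of the gene lists above held a call. CPM here is taken over all gated UMIs of a library.

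None of the 13 mitochondrial mRNAs passed the diet test within the gate. Their log2 changes ranged from −0.36 (mt-Nd3) to 0.02 (mt-Co1). mt-Co3 stood at 60407, 58672 and 62349 CPM in the libraries labelled HFD and at 63541, 53689 and 74476 in those labelled LFD, with overlap. As shares of mitochondrial UMIs, 0 of 13 passed. The nearest was mt-Co1, at 16.3%, 17.6% and 16.3% against 15.2%, 16.05% and 14.3%, which did not overlap, a difference of 1.55 points (exact permutation test, two-sided, p = 0.1, the smallest possible here, adjusted p = 0.945 over the 13).

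The 5 genes with the smallest p in each direction are given as values only. Xirp2, an actin-binding protein known from muscle, stood at 27.2, 46.4 and 37.7 CPM in the libraries labelled HFD and at 18.4, 10.9 and 13.3 in those labelled LFD, without overlap (log2 change 1.38, SE 0.270, adjusted p = 0.9997 by edgeR). It is a leading gene of sub-cluster 2, whose shares are given above, and the part of that share in the difference was not tested. Elfn2, which is among the 10 leading genes of sub-cluster 1, stood at 222, 206 and 288 against 349, 451 and 512 CPM (−0.91). Rest, a repressor of neuronal genes, stood at 10.2, 10.4 and 13.1 against 21.5, 21.5 and 25.7 CPM (−1.06), and Stc1, a secreted glycoprotein, at 7.37, 12.6 and 9.84 against 3.59, 2.64 and 3.34 CPM (1.63). Gm10845, Gm3667 and Gm9758 had log2 changes of 2.06, 2.16 and 1.18, and Ncaph2, Rsph3b and Trrap of −1.12, −0.94 and −0.86. Without HFD replicate 1 there was 1 call, Clu, one of the Sertoli genes that the gate limited, at −3.67 (adjusted p = 0.00849 by edgeR).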

How the data were processed

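Testis cell suspensions were run on the 10x Genomics droplet platform. The labels name version 2 of the 3′ kit and the methods a later one. The authors aligned reads to mm10 (GRCm38) and counted UMIs with Cell Ranger 6.0.1, and the deposited values are raw UMI counts for 32285 genes in 6 libraries (39196921 to 95845514 UMIs each, of which 1764981 to 4266488 were in gated barcodes). Whether reads were counted by strand and whether introns were counted is not given in the sources used here. The study's filter (at least 200 and at most 40000 genes) removed no barcode. The libraries are separate samples by their titles, and p-values measure the spread between them.

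The members and gene lists were chosen with earlier results of these data known. Counts of each library's gated and other barcodes were summed and tested with edgeR 4.0.16 (R 4.3.3, quasi-likelihood, TMM, default filter on low counts, two-sided, adjusted p under 0.05). The diet was tested over libraries, and the gate within libraries with library as a factor, leaving out the genes that the gate used. DESeq2 1.42.0 was an alternative. The library was the replicate throughout. Single values were tested by exact permutation over libraries (3 against 3) or by exact sign flips of 6 within-library differences. A planned test of depth was dropped, since total and nuclear UMIs both enter the gate's share. Barcodes were clustered on 2000 variable nuclear genes (scaled to 10000, 30 components, 20 neighbours, Leiden resolution 0.5, scanpy 1.11.5, Python 3.11.15), and their leading genes used an offset of 5 CPM. Both tools were tested on simulated data with 200 genes changed by 1 on the log2 scale. The changed genes were drawn only from those above a minimum level, so recovery among genes with fewer UMIs was not tested. In the diet comparison (12344 genes) edgeR recovered 36%, with 9 false calls, and DESeq2 52%, with 13. For gated against other (17446 genes) both recovered 100%, with 15 and 18 false calls.

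Genes named were the 13 mitochondrial mRNAs, the 12 largest rises and 12 largest falls among calls with at least 50 CPM on the higher side and 1 direction in 6 libraries, up to 4 genes per list with the highest level in gated barcodes, and for the diet, with no call, the 5 smallest p in each direction. Other list genes named were chosen after their values were seen. Positions and gene classes are from GENCODE M21, which matched 32235 of 32285 genes. Alternatives were the limits of the gate, the comparison set, scaling, filter, tool and each library left out. Plain library sizes and the shares of long noncoding, ribosomal protein and X-linked genes were added after the data were seen.

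The replicate numbers in the titles were checked for pairing. The same-numbered libraries correlated at 0.45, 0.04 and 0.25 in their deviations from the diet means of the gated sums, so the numbers were not taken to pair them. The replicate 1 libraries, which correlated most, were also compared on their own.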

Additional observations from a re-analysis of the deposited data

Results flagged for a closer look

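The share of mt-Atp8 among mitochondrial UMIs, gated minus other, was −0.0415 percentage points in HFD replicate 2 and −0.0259 to −0.0188 in the other 5 libraries, and the gap to the nearest was 0.688 of the whole range, past Dixon's limit at the 95% level. It was the single value marked as far from the others among 18 sets of 6 values examined, and chance marks about 1 in 20. That library had 1794 mt-Atp8 UMIs in its gated barcodes, and the others had 507 to 2066.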

How the results depend on the processing

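With 3 libraries per diet no exact test could pass 0.05, and with 5 of 6 libraries the sign-flip test cannot go below 0.0625, so every left-out library ended those calls without a change of sign: 32.2 to 37 more genes per 1000 UMIs, 0.978 to 1.07 points for long noncoding, −0.288 to −0.233 for X-linked and −1.18 to −0.922 for ribosomal protein genes, and 0 to 0 mitochondrial mRNAs of 13 (also 0 with a limit of 20%, without the Sertoli limit and against like depth). The difference in the gate's share between diets ran from −5.76 to 2.91 points with libraries left out, and was 2.91 without LFD replicate 3. Outside the gate it was 0.0698 with a limit of 10% (−0.184 to −0.0348 with libraries left out). The cause was not tested. Genes called by diet numbered 26 with no filter on low counts (9 higher, 17 lower, Xirp2 and Elfn2 among them) and 0 to 1 with libraries left out. With the replicate block the count was 0, the difference in share −2.22 points (exact sign flip over 3 pairs, p = 0.75) and that outside the gate −0.108 (p = 0.5), and HFD replicates 2 and 3 correlated best with another number (LFD replicates 3 and 2).

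The mitochondrial mRNAs that changed sign were mt-Nd1 (0.00655 points at 20%, 0.0426 without the Sertoli limit, 0.152 against like depth), mt-Nd3 (0.107 at 20%, 0.0186 against 5% to 15%, 0.272 against like depth, 0.0495 without HFD replicate 2, while without each of the other libraries it kept its sign, down to −0.109), mt-Cytb (0.242 at 20%, 0.565 against like depth), mt-Nd4l (0.00635) and mt-Nd5 (0.00365), the last 2 against like depth. Against other barcodes with a mitochondrial share of 5% to 15%, 10 falls changed sign on the log2 scale: Tex29 0.31, Stambpl1 0.35, Spata31 0.30, Isg20 0.23, Sun5 0.043, 4930596D02Rik 0.49, Naa80 0.27, Tssk4 0.24, Saxo1 0.23 and Cabyr 0.25. The count of genes that differed between gated and other barcodes was 8138 to 12454 over the alternatives that kept all libraries and 10210 to 10725 without each library. No barcode had under 1000 UMIs (the lowest had 1221), so a minimum of 1000 changed nothing.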
